A study of Mus musculus with 2 samples.

Results

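Transcripts of the CD209 lectins and of related C-type lectin receptors were followed across the myeloid cells of the mouse ankle synovium. The genes were chosen by name: Cd209a, Cd209b, Cd209d, Cd209f, Cd209g, Clec10a, Mgl2, Clec4b1 and Clec4n, 9 of the 32285 genes in the deposited matrices. This list, and the later lists of other lectins and signalling genes, were made with earlier results of these data known. Counts of listed genes set beside all genes are therefore a description only. Clec7a, also named, was not analysed here. Cells were read by CITE-seq, which counts messenger RNA and barcoded surface antibodies in the same cell. The mice were bone marrow chimeras on the B6 background in which CD45.1 B6 donor marrow had been given to CD45.2 B6 hosts whose ankle was protected from the radiation, so CD45.2 marks host cells and CD45.1 marks cells from the donor marrow. The day 7 library came from chimeras taken 7 days after 200 µL of clodronate liposomes, which kill phagocytes that ingest them, were injected retro-orbitally. The steady-state library came from chimeras with no treatment. Both held live CD45+ CD11b+ cells sorted without Ly6G, SiglecF, CD64, MHC class II, Ly6C or CD177 at the surface. The number of pooled animals and their age are not given in the labels. Each group is a single library, so no difference between them can be set against replicate spread.

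C-type lectin receptors bind sugars through a calcium-dependent domain. The CD209 genes are the mouse relatives of human DC-SIGN, which binds mannose- and fucose-bearing glycans, and they lie side by side. Cd209a is best known from dendritic cells and monocytes, and Cd209b from marginal zone macrophages of the spleen. Cd209d, Cd209f and Cd209g are less studied members of the same family. Clec10a and Mgl2 encode the galactose-type lectins CD301a and CD301b of macrophages and dendritic cells. Clec4b1 and Clec4n belong to the Dectin-2 cluster. Clec4n encodes Dectin-2 itself, a receptor for fungal mannans that signals through the Fc receptor gamma chain (Fcer1g), the kinase Syk and the adaptor Card9.

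In the GRCm38 build the 5 CD209 genes lie on chromosome 8, within a stretch of 394.313 kb from 3743395 to 4137707 that holds, in order, Cd209a, Cd209e, Cd209d, Cd209b, Cd209c, Cd209f and Cd209g. Clec10a (chromosome 11, 70166623 to 70170836) and Mgl2 (chromosome 11, 70130125 to 70137542) are neighbours. Clec4b1 (chromosome 6, 123049962 to 123071555) and Clec4n (chromosome 6, 123229843 to 123247024) share a cluster. Near-identical paralogues can share reads, and how reads matching several genes were counted is not given in the sources used here.

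After filtering, 1200 cells with 10824984 UMIs (median 8309 per cell) remained at day 7, and 1630 cells with 17060676 UMIs (median 9558.5) at steady state. No cell barcode was shared between the libraries (0 shared). Cells were sorted into gates by summed transcripts of marker genes, none of them a lectin described here. C1q-rich macrophages numbered 168 at day 7 and 927 at steady state. They were split into cells with Vsig4 and S100b (31 and 171), with Vsig4 alone (54 and 328), with Aqp1 or Fxyd2 (77 and 395), with Lyve1, Cd163 or Folr2 but none of these (2 and 12), and the remaining cells (4 and 21). The Aqp1 gate also carried Lyve1, at 1588 UMIs per 1000000 (CPM) on day 7 and 2169 at steady state. Cells rich in MHC class II transcripts without C1q numbered 116 and 261. Classical monocytes numbered 591 and 198, Ly6C-low monocytes 115 and 109, and cells of the granulocyte lineage, called granulocytes here, 175 and 8. The class II gate held few transcripts of the dendritic cell genes Flt3 (34.3 CPM at day 7, 23.7 at steady state) and Zbtb46 (8.3 and 5.0), beside 1123 and 766 CPM of the monocyte receptor Ccr2, so it is named here by class II alone. The class II and monocyte gates rest on transcripts, since the sort had left out cells with MHC class II or Ly6C at the surface. Levels are UMIs summed over the cells of a gate scaled to 1000000 UMIs of that gate. Ranges in brackets are 95% intervals of counting error only, exact Poisson for levels and ratios and Clopper-Pearson for shares. They treat UMIs as independent and leave out the spread between cells and animals. A fold in a sum can come from more positive cells or from more UMIs per positive cell, so both are given where a result turns on them.

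**Figure D1:**
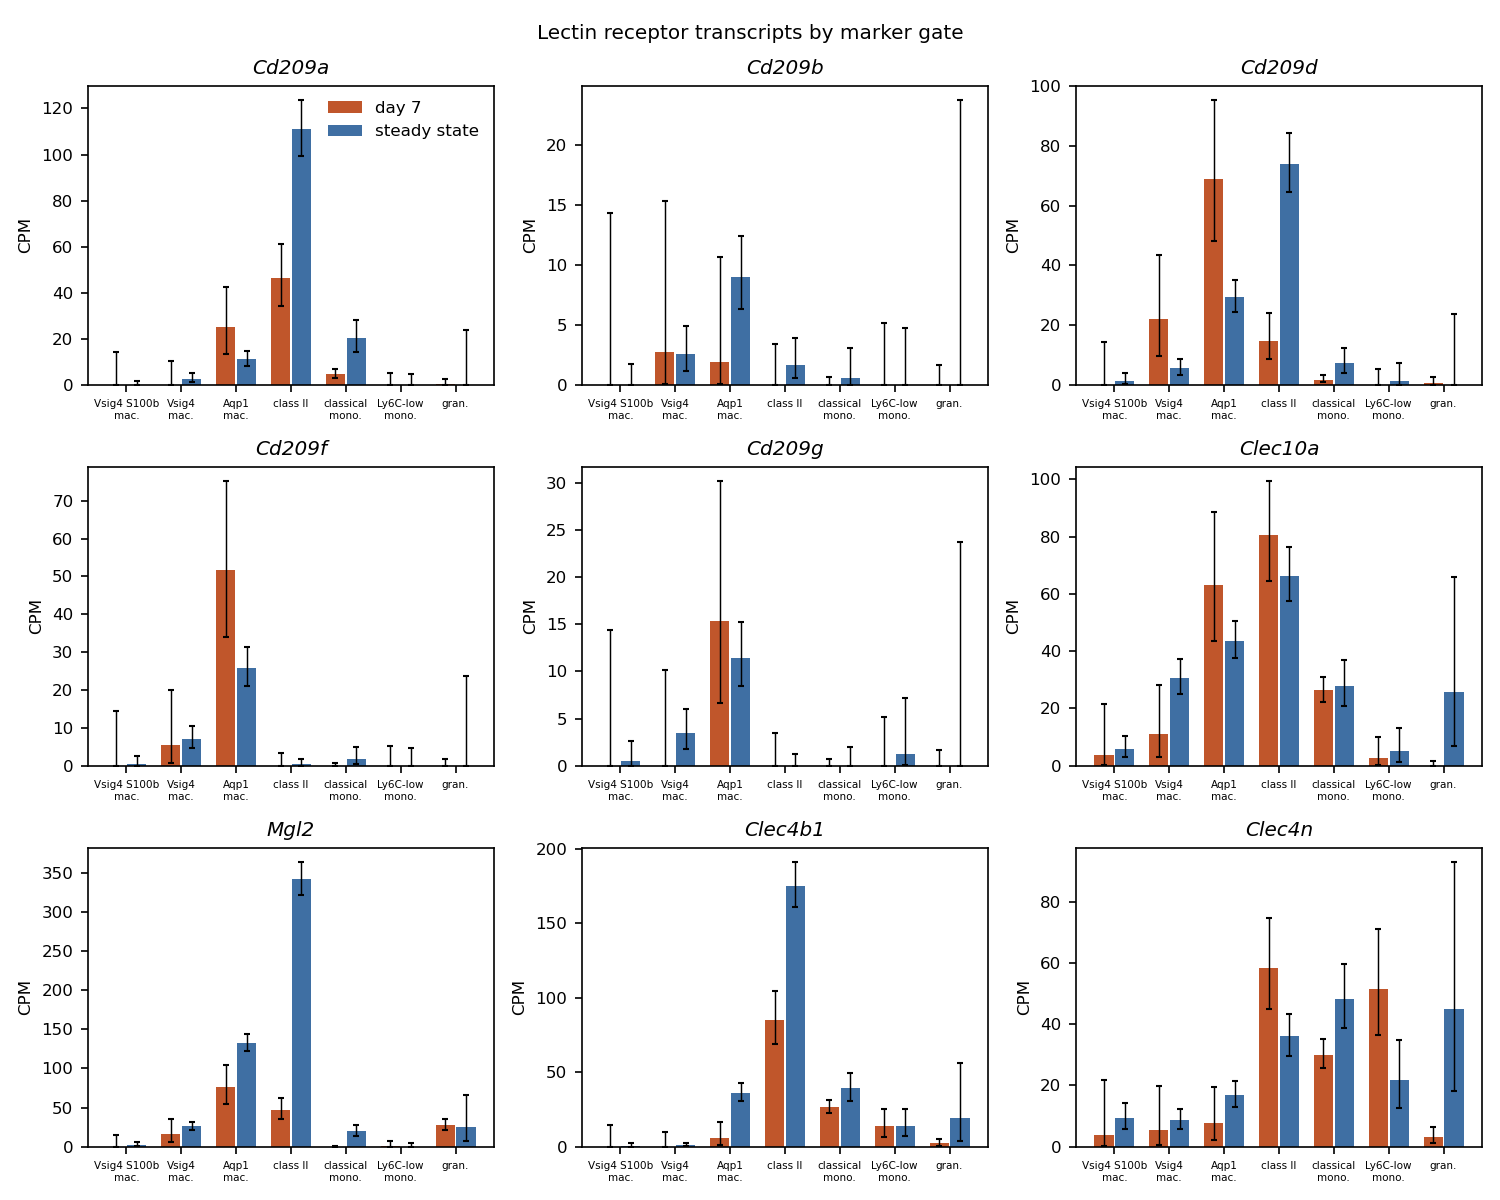
Level of each lectin transcript in CPM (y axis, linear, scaled per panel) in 7 marker gates (x axis), day 7 left of steady state, with 95% Poisson intervals of counting error as bars. Of the gates drawn, Cd209a, Mgl2 and Clec4b1 stand highest in class II gated cells at steady state, and Cd209f and Cd209g in Aqp1-gated macrophages in both libraries.

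The first question was which CD209 paralogues each kind of cell used. Macrophages and class II gated cells carried different sets. Class II gated cells carried Cd209a and Cd209d and almost nothing else of the family, while macrophages carried all 5 genes, Cd209f and Cd209g among them. Of the family's UMIs in class II gated cells, Cd209a made up 75.8% (63.6 to 85.5%, 50 of 66) at day 7 and 59.4% (55.2 to 63.5%, 333 of 561) at steady state. Cd209d made up 24.2% and 39.6%. Cd209f gave 0 of 66 UMIs and 1 of 561, and Cd209g gave 0 in each library, where a floor of 3 counts is 2.78 CPM at day 7 and 1.0 CPM at steady state. In macrophages Cd209f made up 30.2% (29 of 96, of which 22 were in 1 cell) at day 7 and 31.9% (27.9 to 36.1%, 165 of 517) at steady state, and Cd209g made up 8.33% and 13.5%. Cd209a made up 13.5% of the macrophages' family UMIs at day 7 and 12.8% at steady state, where 21 of its 66 UMIs came from 1 cell. Counts from the 3' end are not scaled by gene length, so these shares are set side by side between cells and not between genes.

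**Figure D2:**
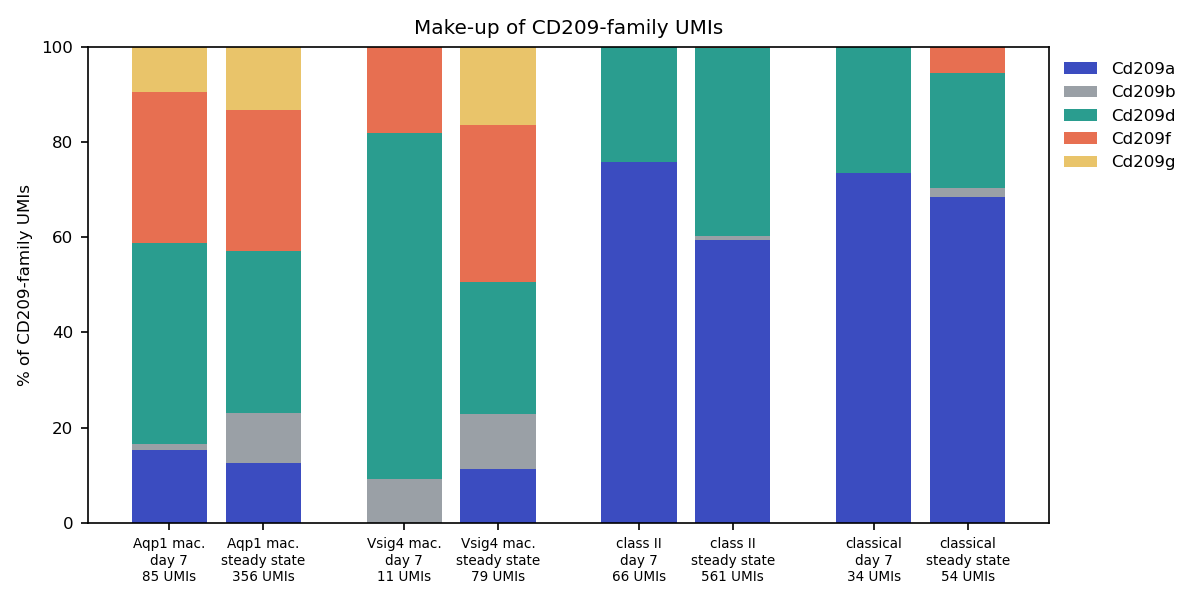
Share of CD209-family UMIs (y axis, %) that fell on each of the 5 paralogues in 4 marker gates, day 7 left of steady state, with the number of family UMIs under each bar. Cd209a makes up 75.8% and 59.4% in class II gated cells and 15.3% and 12.6% in Aqp1-gated macrophages. In the steady-state Aqp1 bar 21 of the 45 Cd209a UMIs came from 1 cell. The day 7 bar of the Vsig4 gates rests on 11 UMIs.

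As levels, Cd209a stood at 11.0 CPM in macrophages against 46.3 in class II gated cells at day 7, and at 6.62 against 111 at steady state. Cd209f ran the other way, with 24.6 CPM in macrophages against 0 in class II gated cells at day 7, and 16.5 against 0.33 at steady state. Cd209f had 165 UMIs in 32 of 927 macrophages and 1 UMI in 261 class II gated cells at steady state. Cd209g had 70 UMIs in 23 macrophages there and 0 in class II gated cells. Cd209d was shared: it had 37.3 CPM in macrophages and 14.8 in class II gated cells at day 7, and 16.4 and 74.0 at steady state. Cd209b was rare, with 2 UMIs in 168 macrophages at day 7 and 52 UMIs in 21 of 927 at steady state. Of the members with at least 20 CPM in either gate, 2 of 7 were at least 2-fold higher in macrophages than in class II gated cells at day 7 (Cd209d and Cd209f; 19.0% of all genes tested) and 4 were lower (9.48% of all genes). Both higher calls rest on 1 cell each, which gave 27 of the 44 macrophage UMIs of Cd209d and 22 of the 29 of Cd209f. Without the richest cells Cd209d stood at 14.5 CPM in macrophages and 11.2 in class II gated cells, and Cd209f at 5.98 CPM in macrophages, under the minimum, so neither call was kept. Among the 4 lower at day 7, Cd209a, Clec4b1 and Clec4n were under 20 CPM in macrophages and could not be called higher. Cd209d and Cd209f were under it in class II gated cells there and could not be called lower. At steady state 0 of 6 were higher (13.5% of all genes) and 5 were lower (7.28%). Of those 5, all but Mgl2 were under 20 CPM in macrophages and so could not be called higher. The log2 ratio over the tested members had a median of -1.18 at day 7 and -2.24 at steady state, against 0.22 and 0.18 over all genes tested. Most tested members could be called in 1 direction only, so these medians are a description only.

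Classical monocytes carried Cd209a and Cd209d, each at a lower level than in class II gated cells. Cd209a had 4.55 CPM in 8 of 591 classical monocytes at day 7 and 20.3 CPM in 16 of 198 at steady state, and it made up 73.5% of 34 and 68.5% of 54 family UMIs. At day 7 a single cell gave 16 of its 25 UMIs, and its level without that cell was 1.64 CPM. Cd209d followed with 1.64 and 7.13 CPM. In Ly6C-low monocytes all 5 genes together gave 0 UMIs at day 7 and 2 at steady state, 1 of Cd209d and 1 of Cd209g. In granulocytes, where these genes are not known for expression, day 7 gave 1 UMI each of Cd209a and Cd209d in 175 cells of median depth 11563 UMIs. For the other genes the same 175 granulocytes held Clec10a in 0 cells, Clec4b1 in 5, Clec4n in 4 and Mgl2 in 33. Free RNA was not measured, and the steady-state granulocyte gate had 8 cells, with 4 UMIs each of Clec10a and Mgl2. Median depth was 6755.5 UMIs in macrophages at day 7 and 10077 at steady state, and 9230.5 and 9939 in class II gated cells.

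To show how the shared and the divided paralogues differ in front of the gene, the windows of 250 bases before to 50 bases after the start are printed for Cd209a, Cd209d and Cd209f, and for Mgl2, which is described next (RefSeq, GRCm38.p6, chr8:3748935-3749234 minus strand, chr8:3878450-3878749 minus strand, chr8:4105715-4106014 minus strand and chr11:70130107-70130406 plus strand). Capitals mark matches on either strand to AGGAAG (a core bound by PU.1 and other ETS factors), TGCTGA (part of a MAF site), TTGCNNAA (a C/EBP site) and 2 copies of GAAA with NN between them (an IRF composite); overlapping matches merge.
Cd209a: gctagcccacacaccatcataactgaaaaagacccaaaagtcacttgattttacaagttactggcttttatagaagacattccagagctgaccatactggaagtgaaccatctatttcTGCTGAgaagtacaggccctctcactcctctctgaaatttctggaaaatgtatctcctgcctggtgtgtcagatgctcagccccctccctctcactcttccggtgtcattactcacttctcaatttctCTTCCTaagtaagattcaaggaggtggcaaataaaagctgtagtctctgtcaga
Cd209d: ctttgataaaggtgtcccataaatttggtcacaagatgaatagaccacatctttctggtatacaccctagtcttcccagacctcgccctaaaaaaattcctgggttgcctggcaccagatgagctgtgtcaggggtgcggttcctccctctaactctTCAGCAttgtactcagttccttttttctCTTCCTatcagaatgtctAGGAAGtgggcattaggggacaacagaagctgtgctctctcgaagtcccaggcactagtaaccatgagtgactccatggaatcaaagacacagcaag
Cd209f: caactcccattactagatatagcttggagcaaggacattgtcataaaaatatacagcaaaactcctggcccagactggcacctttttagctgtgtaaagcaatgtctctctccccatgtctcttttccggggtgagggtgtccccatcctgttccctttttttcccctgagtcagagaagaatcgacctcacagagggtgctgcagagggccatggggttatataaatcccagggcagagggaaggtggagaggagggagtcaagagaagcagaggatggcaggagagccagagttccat
Mgl2: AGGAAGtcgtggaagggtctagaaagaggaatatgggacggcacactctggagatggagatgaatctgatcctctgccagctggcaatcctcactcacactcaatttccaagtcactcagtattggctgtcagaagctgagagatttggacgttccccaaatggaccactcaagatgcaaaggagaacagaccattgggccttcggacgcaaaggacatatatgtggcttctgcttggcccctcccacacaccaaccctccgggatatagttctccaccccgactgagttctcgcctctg

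The Cd209a window held 1 match to AGGAAG and 1 to TGCTGA, and the Cd209d window held 2 and 1. The Cd209f and Cd209g windows held 0 matches to any of the 4 motifs. The Cd209b window held 3 matches to AGGAAG and 1 to TTGCNNAA, that of Mgl2 1 to AGGAAG, and that of Clec4b1 1 to the IRF composite. Windows were found for 7 of the 9 genes; Clec10a and Clec4n had no entry. Over all 32851 windows of 300 bases, 35.4% held AGGAAG, 19.5% TGCTGA, 10.8% TTGCNNAA and 3.44% the IRF composite. A match is a description of letters and not a bound site. The start used for the Mgl2 window lies inside the gene as placed above. That window begins at 70130107 and the gene at 70130125, so most of the window is within the gene.

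The next question was whether the paralogues shared cells. Family transcripts sat in few cells, and several paralogues often sat in the same one. At least 1 family UMI was found in 5.36% of macrophages at day 7 (2.48 to 9.93%, 9 of 168) and in 9.39% at steady state (7.59 to 11.4%, 87 of 927). With cells thinned to 3000 UMIs these shares were 4.65% (6 of 129) and 5.12% (43 of 840). Of the positive macrophages, 5 of 9 at day 7 and 32 of 87 at steady state (36.8%, 26.7 to 47.8%) held 2 or more paralogues. At steady state 13 held 2, 8 held 3, 5 held 4 and 6 held all 5.

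The steady-state pairs were tight within macrophages. Cd209f was found with Cd209g in 16 of 32 Cd209f-positive macrophages, against 7 of 895 Cd209f-negative ones (0.78%). Cd209d was found in 22 of those 32 cells (68.8%), against 35 of 895 without Cd209f (3.91%). Cd209b-positive macrophages held Cd209f in 12 of 21 cells (57.1%), against 20 of 906 Cd209b-negative ones (2.21%). Family-positive macrophages had a median of 7978 UMIs and family-negative ones 6484 at day 7, and 8719 and 10166.5 at steady state; the part of depth in the pairing was not tested. Cd209f-positive macrophages also held Clec10a in 25 of 32 cells (78.1%) and Mgl2 in 20 of 32 (62.5%), against 12.7% and 14.9% of Cd209f-negative macrophages.

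In class II gated cells the pairing was of Cd209a with Cd209d. At day 7 Cd209d was found in 4 of 13 Cd209a-positive cells and in 1 of 103 Cd209a-negative cells. At steady state it was found in 32 of 62 (51.6%) and in 10 of 199 (5.03%). Family-positive class II gated cells were deeper than negative ones, with medians of 13150.5 and 8729 UMIs at steady state, and the part of depth in this pairing was not tested.

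**Figure D3:**
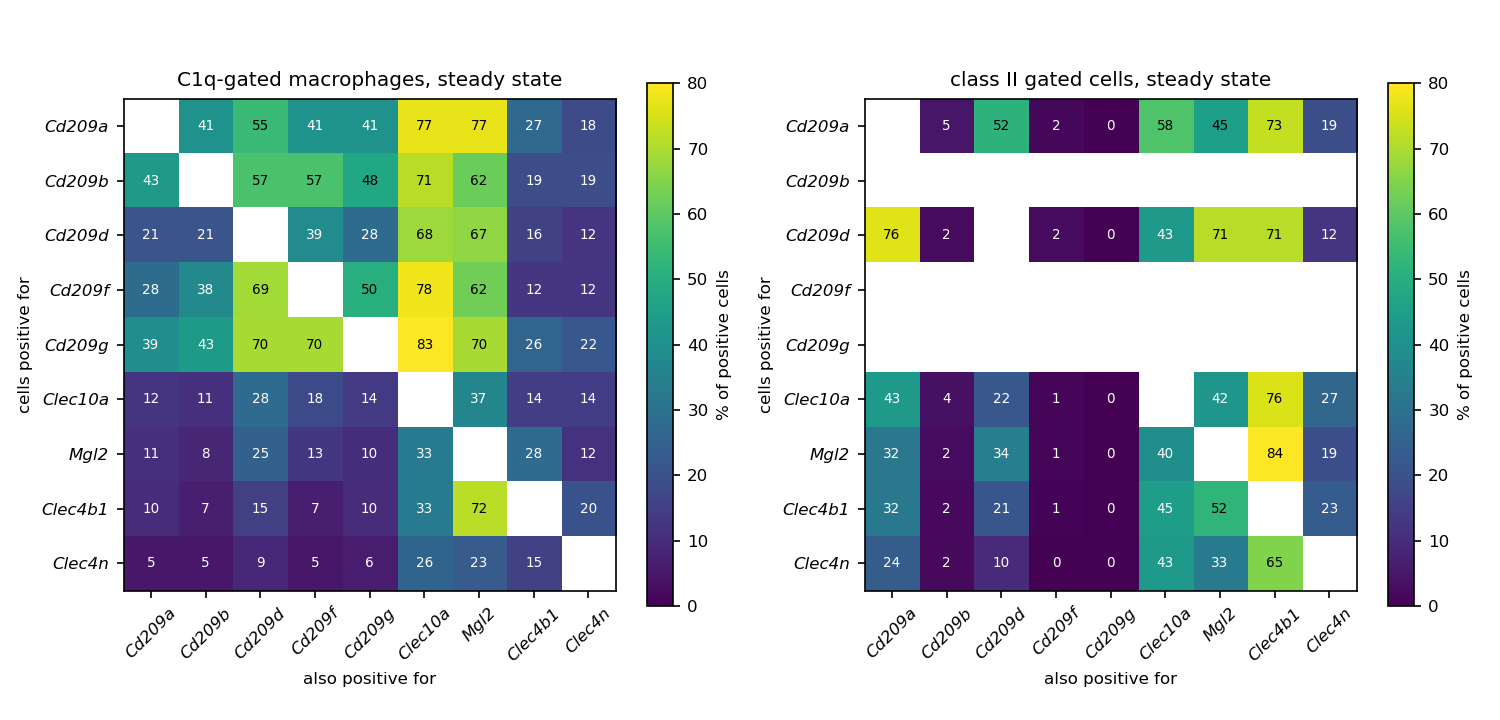
Percentage of steady-state cells with a UMI of the row gene that also held a UMI of the column gene, in C1q-gated macrophages (left) and class II gated cells (right); colour and number give the percentage, and rows with under 10 positive cells and the diagonal are blank. In macrophages the 5 CD209 rows share cells with one another and with Clec10a and Mgl2, while in class II gated cells Cd209a and Cd209d share cells and the columns of Cd209b, Cd209f and Cd209g stand at 5% or less.

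CD209-positive macrophages also differed in the chemokine Ccl8, a gene looked at after its values had been seen. Ccl8 was found in 4 of 9 family-positive macrophages at day 7 and in 0 of 159 family-negative ones, where the floor of 3 counts is 1.89%. At steady state it was found in 24 of 87 positive macrophages (27.6%, 18.5 to 38.2%) and in 17 of 840 negative ones (2.02%, 1.18 to 3.22%). The 41 Ccl8-positive macrophages of the steady state held 220 CPM of Cd209f, 191 of Cd209d, 339 of Clec10a and 249.5 of Mgl2. The 886 Ccl8-negative ones held 7.03 CPM of Cd209f, 8.29 of Cd209d, 20.3 of Clec10a and 60.0 of Mgl2. The mannose receptor Mrc1, another lectin, stood at 1589 CPM in the Ccl8-positive and 559 in the Ccl8-negative cells. Stromal gated cells held Ccl8 too, at 169 CPM in 15 cells at day 7 and 199 CPM in 64 cells at steady state. The stromal cells held 0 UMIs of the 5 CD209 genes at day 7 and 1 UMI, of Cd209a, at steady state.

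Between the 2 large macrophage gates, the tested lectins were higher in Aqp1-gated than in Vsig4-gated cells. At day 7 Cd209f had 51.7 CPM in Aqp1-gated and 3.23 in Vsig4-gated macrophages (both Vsig4 gates together), and at steady state 25.8 and 4.60 (log2 2.49, 1.86 to 3.17). In the day 7 Aqp1 gate 22 of its 27 UMIs came from 1 cell, and the level without it was 9.74 CPM. Mgl2 had 76.5 CPM in Aqp1-gated and 9.68 in Vsig4-gated macrophages at day 7, and 133 and 17.0 at steady state (log2 2.97, 2.65 to 3.30). Clec4b1 had 5.74 CPM in Aqp1-gated macrophages and 0 UMIs in Vsig4-gated ones at day 7, and 36.3 and 0.71 CPM at steady state (log2 5.68, 4.30 to 7.58). At day 7, 5 of 5 tested members were at least 2-fold higher in the Aqp1 gate (Cd209a, Cd209d, Cd209f, Clec10a and Mgl2), where 5.4% of all genes were, and 0 were lower (5.33% of all genes). Cd209d had 27 of its 36 UMIs in that gate in 1 cell, and 17.5 CPM without it. Cd209a had 13 UMIs in 3 cells, and 11.7 CPM without the richest. Without their richest cells Cd209a, Cd209d and Cd209f were each under the minimum of 20 CPM, so these calls were not kept. At steady state 5 of 5 tested members were at least 2-fold higher in the Aqp1 gate (Cd209d, Cd209f, Clec10a, Mgl2 and Clec4b1), where 1.37% of all genes were, and 0 were lower (1.33%). Of these 5, Clec10a differed least at steady state, at 43.6 and 21.2 CPM (log2 1.04, 0.70 to 1.39). The other tested members, and all of those at day 7, were under 20 CPM in the Vsig4 gates. They were tested through the Aqp1 gate alone and could not be called lower, so these counts are a description only. Clec4n, under the minimum of 20 CPM, stood at 16.8 and 8.85 CPM.

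The Aqp1 gate was not the macrophage gate with the highest levels. The 12 steady-state macrophages gated by Lyve1, Cd163 or Folr2, at a median of 8099.5 UMIs, held 263 CPM of Cd209f (179 to 373; 31 UMIs in 4 cells), 169.5 of Cd209d (5 cells) and 331 of Clec10a (235 to 452; 6 cells). Of these 12 cells 6 held a CD209 UMI, among 87 such macrophages in all, of which 47 were in the Aqp1 gate. At day 7 this gate had 2 cells and 0 CD209 UMIs.

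Macrophages with both Vsig4 and S100b had the least. At steady state their 171 cells gave 0 UMIs of Cd209a and Cd209b, 3 of Cd209d, 1 of Cd209f and 1 of Cd209g, although their median depth of 11513 UMIs was above that of the Aqp1 gate (9889). Clec4n stood at 9.21 CPM in 18 of these cells, against 8.62 CPM in the cells with Vsig4 alone and 16.8 CPM in the Aqp1 gate. At day 7 the 31 cells of this gate gave 1 UMI of Clec10a and 1 of Clec4n and 0 of the other 7 genes.

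Within the class II gate, Mgl2 and Cd209a marked overlapping but unequal sets. At day 7, 0 cells held both, 7 held Mgl2 alone, 13 Cd209a alone and 96 neither. At steady state 28 cells held both, 60 Mgl2 alone, 34 Cd209a alone and 139 neither. Cd209a was found in 28 of 88 Mgl2-positive cells (31.8%) and in 34 of 173 Mgl2-negative cells (19.7%). Cells with both carried the most Cd209d, 289 CPM, against 156 with Cd209a alone and 30.3 with Mgl2 alone. The order for Clec4b1 was another: 282 CPM with both, 226 with Mgl2 alone, 131 with Cd209a alone and 106 with neither. Clec10a followed Cd209a and not Mgl2, with 111 CPM in cells with both, 166 with Cd209a alone, 22.2 with Mgl2 alone and 52.5 with neither.

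Some of these sets also differed in genes outside the lectins at steady state. Of the dendritic cell genes looked at, Flt3 and Dpp4 alone are given by set, and not for every set. No set is named as dendritic from them. Cells with Cd209a alone had 72.9 CPM of Flt3, the receptor of dendritic cell growth, 47.8 of Dpp4 and 880 of Ccr2. Cells with Mgl2 alone had 10.1 CPM of Flt3, 2.0 of Dpp4 and 464 of Ccr2, and 13.1 of the monocyte gene Ly6c2. Cells with neither had 325 CPM of Ly6c2, against 161 with Cd209a alone. Median depths were 14662.5 UMIs with both, 15698 with Mgl2 alone, 11509 with Cd209a alone and 8119 with neither, so a cell with neither may hold either gene below detection at its depth.

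Clec10a, Clec4b1 and Clec4n were also found in monocytes. Clec10a was found in class II gated cells at 80.5 CPM on day 7 and 66.3 at steady state, in macrophages at 35.6 and 34.5, and in classical monocytes at 26.4 and 28.0. In classical monocytes it sat in 114 of 591 cells at day 7 and 44 of 198 at steady state, with at most 3 and 5 UMIs in a cell. Ly6C-low monocytes held 2.79 and 5.12 CPM. Clec4b1 was found in 49 of 116 class II gated cells (42.2%) at day 7 and 141 of 261 (54.0%) at steady state. It stood at 26.4 and 39.5 CPM in classical monocytes. Clec4n ran through the monocyte gates as well. It stood at 58.3 CPM in class II gated cells, 30.1 in classical monocytes and 51.6 in Ly6C-low monocytes at day 7. At steady state these gates held 36.0, 48.3 and 21.8 CPM, while macrophages held 5.93 CPM at day 7 and 12.5 at steady state.

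The order of the gates for each gene at steady state, over the gates of at least 20 cells, held several neighbours whose counting intervals overlapped. For Mgl2, class II gated cells (342 CPM, 321 to 363) were followed by the 21 remaining macrophages (298, 201 to 426; 30 UMIs in 7 cells) and Aqp1-gated macrophages (133, 122 to 144), and these by 63 cells outside all gates (119, 94.7 to 147), then by macrophages with Vsig4 alone (26.1). The intervals of the first and second overlapped, and so did those of the Aqp1 gate and of the cells outside all gates. For Cd209a, class II gated cells (111, 99.4 to 124) came before the remaining macrophages (29.8, 6.15 to 87.2, 3 UMIs), classical monocytes (20.3, 14.3 to 28.0) and Aqp1-gated macrophages (11.0, 8.0 to 14.7), and each of the last 3 intervals overlapped its neighbour. In the Aqp1 gate 1 cell gave 21 of the 45 Cd209a UMIs, and the level without it was 5.88 CPM. For Clec4b1 the remaining macrophages stood first (368, 259 to 507; 37 UMIs in 9 of 21 cells) and class II gated cells next (175, 161 to 191), above classical monocytes (39.5, 30.9 to 49.8) and Aqp1-gated macrophages (36.3, 30.7 to 42.7), whose intervals overlapped. The 21 remaining macrophages were shallow, at a median of 3671 UMIs, and 3 of them were host cells. At day 7 the order for Mgl2 was another, with Aqp1-gated macrophages (76.5, 54.7 to 104) and class II gated cells (47.2, 35.2 to 62.1) overlapping. Clec10a in class II gated cells (80.5, 64.5 to 99.3) overlapped Aqp1-gated macrophages (63.2, 43.5 to 88.7) there, and Clec4n in class II gated cells (58.3, 44.8 to 74.6) overlapped Ly6C-low monocytes (51.6, 36.3 to 71.1).

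Set against classical monocytes, the class II gated cells had higher levels of most members. At day 7, 4 of 5 tested members were at least 2-fold higher in class II gated cells (Cd209a, Clec10a, Mgl2 and Clec4b1; 3.44% of all genes) and 0 were lower (3.83%). At steady state 5 of 6 were (the same 4 and Cd209d; 5.88% of all genes) and 0 were lower (4.52%). Members under 20 CPM in classical monocytes could not be called lower: Cd209a at day 7, Cd209d at steady state and Mgl2 in both. Mgl2 had the largest log2 ratio of those tested in each library, with 47.2 CPM in class II gated cells and 0.18 in classical monocytes at day 7 (log2 8.02, 5.47 to 13.3, resting on 1 monocyte UMI) and 342 and 19.8 CPM at steady state (log2 4.11, 3.63 to 4.63). Clec4n differed least, at log2 0.96 at day 7 and -0.42 at steady state.

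Mgl2 also appeared in the granulocyte-lineage gate of the day 7 library, almost only in its cells rich in primary granule genes. There 33 of the 175 cells of the gate held 61 UMIs (27.8 CPM, 21.3 to 35.7), while Clec10a gave 0 UMIs in the same 175 cells. Split by the primary granule genes Mpo, Elane, Prtn3 and Ctsg, a split chosen after the values had been seen, the cells rich in them held 58 UMIs in 31 of 82 cells and the others 3 UMIs in 2 of 93. The rich cells were deep, with a median of 18360.5 UMIs against 8050 in the others. After thinning to 3000 UMIs, 7 of 124 cells of the whole gate were positive. In the same library 1 of 591 classical monocytes, at a median of 8898 UMIs, held Mgl2.

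The comparison of the libraries asked how the gates differed 7 days after clodronate. Over all kept cells 4 of 6 tested members were at least 2-fold lower at day 7 (10.6% of all genes) and 0 were higher (6.51%), in libraries whose mix of gates differed. Among the 4, Cd209a, Cd209d and Mgl2 were under 20 CPM at day 7 and could not be called higher. In class II gated cells 4 of the 6 tested members were at least 2-fold lower at day 7, where 4.43% of all genes were, and 0 were higher, where 4.31% were. Cd209d, 1 of these 4, was under 20 CPM at day 7 in this gate and could not be called higher. Mgl2 stood at 47.2 CPM in 7 of 116 cells at day 7 and at 342 CPM in 88 of 261 at steady state (log2 -2.86, -3.29 to -2.45). Of the day 7 UMIs, 30 of 51 came from 1 cell, and without the richest cell of each library the log2 ratio was -3.96. Cd209d stood at 14.8 and 74.0 CPM (log2 -2.32, -3.15 to -1.59) and Cd209a at 46.3 and 111 CPM (log2 -1.26, -1.72 to -0.83). Clec4b1 stood at 85.2 and 175 CPM (log2 -1.04, -1.38 to -0.72). Clec10a (log2 0.28, -0.10 to 0.65) and Clec4n (log2 0.70, 0.22 to 1.16) did not pass 2-fold. The tested members had a median log2 ratio of -1.15, against 0.11 over all genes tested in this gate.

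The shares of positive cells in the same gate differed by gene. With cells thinned to 3000 UMIs, Mgl2 was found in 5.50% of class II gated cells at day 7 (2.05 to 11.6%, 6 of 109) and 22.6% at steady state (17.4 to 28.6%, 52 of 230), and Clec4b1 in 17.4% and 34.3%. Cd209a was found in 10.1% (5.15 to 17.3%) and 15.7% (11.2 to 21.0%), with overlapping intervals. Clec10a (13.8% and 14.3%) and Clec4n (11.0% and 10.4%) had near-equal shares. The unthinned shares were 6.03% and 33.7% for Mgl2, 11.2% and 23.8% for Cd209a, and 33.6% and 31.8% for Clec10a. The gate itself held more monocyte transcripts at day 7, with Ly6c2 at 541 and 156 CPM and Chil3 at 239 and 63.7 CPM, and less of the class II chaperone Cd74, at 7800 and 17729 CPM. A change in the kinds of cells in the gate and a change in transcripts per cell cannot be told apart.

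**Figure D4:**
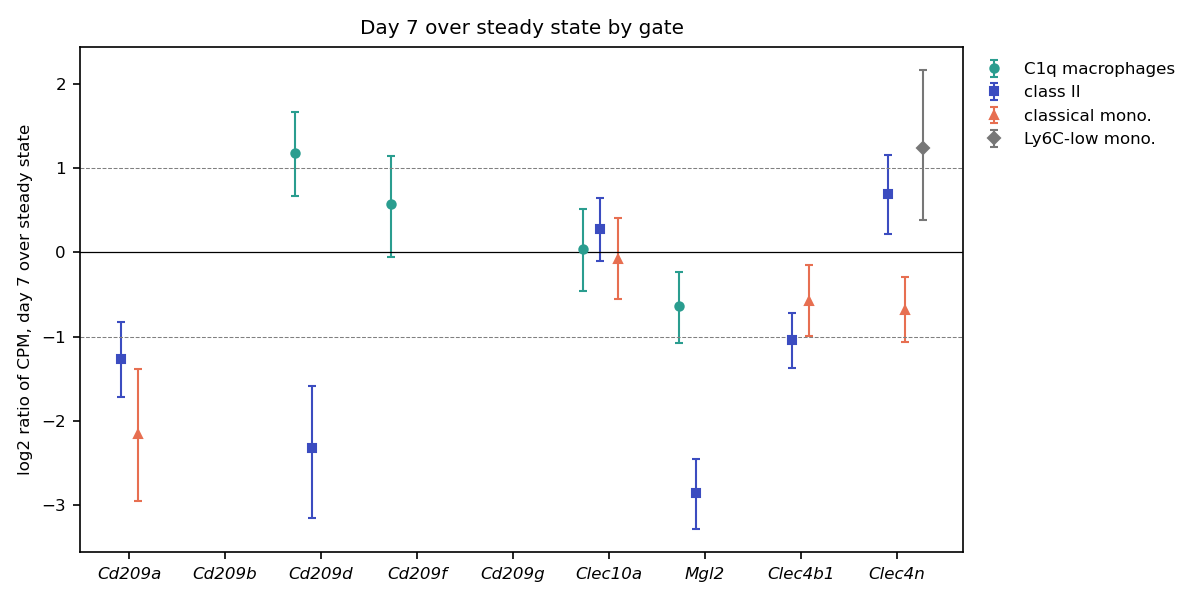
Log2 ratio of CPM, day 7 over steady state (y axis), of each lectin with at least 20 CPM in either library, in 4 marker gates, with 95% Poisson intervals of counting error; dashed lines mark 2-fold. Mgl2, Cd209d, Cd209a and Clec4b1 lie below the lower line in class II gated cells, while the point of Cd209d in macrophages, above the upper line, rests on 1 cell with 27 of its 44 day 7 UMIs.

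In macrophages 1 of 4 tested members was at least 2-fold higher at day 7 (1.04% of all genes) and 0 were lower (0.899%). Cd209d and Cd209f were under 20 CPM at steady state and could not be called lower. Cd209d stood at 37.3 CPM at day 7 and 16.4 at steady state (log2 1.18, 0.67 to 1.67), but 27 of its 44 day 7 UMIs came from 1 cell. Without the cell richest in it in each library the levels were 14.5 and 15.4 CPM and the log2 ratio was -0.08. Cells with Cd209d were 4.17% of macrophages at day 7 and 6.15% at steady state. Cd209f likewise had 22 of its 29 day 7 UMIs in 1 cell, with a log2 ratio of 0.57 (-0.05 to 1.15) and of -1.24 without the richest cells. Mgl2 stood at 44.1 and 68.5 CPM (log2 -0.64, -1.07 to -0.23) and Clec10a at 35.6 and 34.5 CPM (log2 0.04, -0.45 to 0.51).

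In Aqp1-gated macrophages 2 of 6 tested members were higher at day 7 (Cd209a and Cd209d; 3.56% of all genes) and 1 was lower (Clec4b1; 2.4% of all genes). Cd209a stood at 24.9 CPM, 13 UMIs in 3 cells, at day 7 and 11.0 CPM at steady state. Without the richest cells neither Cd209a nor Cd209d was 2-fold higher. Clec4b1 had 3 UMIs in 77 cells at day 7 and 149 UMIs in 395 cells at steady state (log2 -2.66, -4.96 to -1.09). Clec4b1, under 20 CPM at day 7, could not be called higher, and Cd209a, under it at steady state, could not be called lower. In Vsig4-gated macrophages Clec10a, the 1 member tested, was lower at day 7, with 8.07 and 21.2 CPM (log2 -1.40, -3.05 to -0.13; 1.92% of all genes were lower and 2.32% higher). Those day 7 levels rest on 5 UMIs, and Clec10a, under 20 CPM at day 7, could not be called higher.

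In classical monocytes 1 of 4 tested members was at least 2-fold lower at day 7 (1.67% of all genes) and 0 were higher (2.1%). This was Cd209a, at 4.55 and 20.3 CPM (log2 -2.16, -2.95 to -1.39). Under 20 CPM at day 7, Cd209a could not be called higher, and 16 of its 25 day 7 UMIs came from 1 cell. Clec4n (log2 -0.68, -1.07 to -0.29) and Clec4b1 (log2 -0.58, -1.0 to -0.15) did not pass 2-fold. Mgl2 was under the minimum of 20 CPM, with 1 UMI in 591 cells at day 7 and 36 UMIs in 4 of 198 cells at steady state. In Ly6C-low monocytes Clec4n, the 1 member tested, was higher at day 7, at 51.6 and 21.8 CPM in 18 of 115 and 14 of 109 cells (log2 1.25, 0.38 to 2.17; 6.15% of all genes were higher and 5.09% lower).

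Origin was read from the CD45.2 and CD45.1 antibodies. Among assigned cells, host cells were 81.5% of macrophages at day 7 (97 of 119) and 83.2% at steady state (713 of 857), but 1.74% and 4.30% of class II gated cells. Of day 7 macrophages 49 of 168 had no assigned origin, among them all 3 that held Cd209f. The members differed in origin. CD209-positive macrophages were 79.2% host at steady state (68.5 to 87.6%, 61 of 77), and CD209-negative ones 83.6% (80.8 to 86.1%, 652 of 780). Within the Aqp1 gate the shares were 69.0% (29 of 42) and 69.7% (228 of 327). Of Cd209f-positive macrophages 25 of 29 were host cells. At day 7, 5 of 6 CD209-positive macrophages with an origin were host cells. The intervals of positive and negative macrophages overlapped in each of these pairs.

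Mgl2 and Clec4b1 stood apart from the CD209 genes. Mgl2-positive macrophages were 58.3% host at steady state (49.8 to 66.5%, 84 of 144) and Mgl2-negative ones 88.2% (85.6 to 90.5%). Clec4b1-positive macrophages were 23.6% host (13.2 to 37.0%, 13 of 55) and Clec4b1-negative ones 87.3% (84.8 to 89.5%). The shares kept this order within the Aqp1 gate, at 49.0% and 77.5% for Mgl2 and 26.2% and 75.2% for Clec4b1. At day 7, 7 of 13 Mgl2-positive and 0 of 3 Clec4b1-positive macrophages were host cells.

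**Figure D5:**
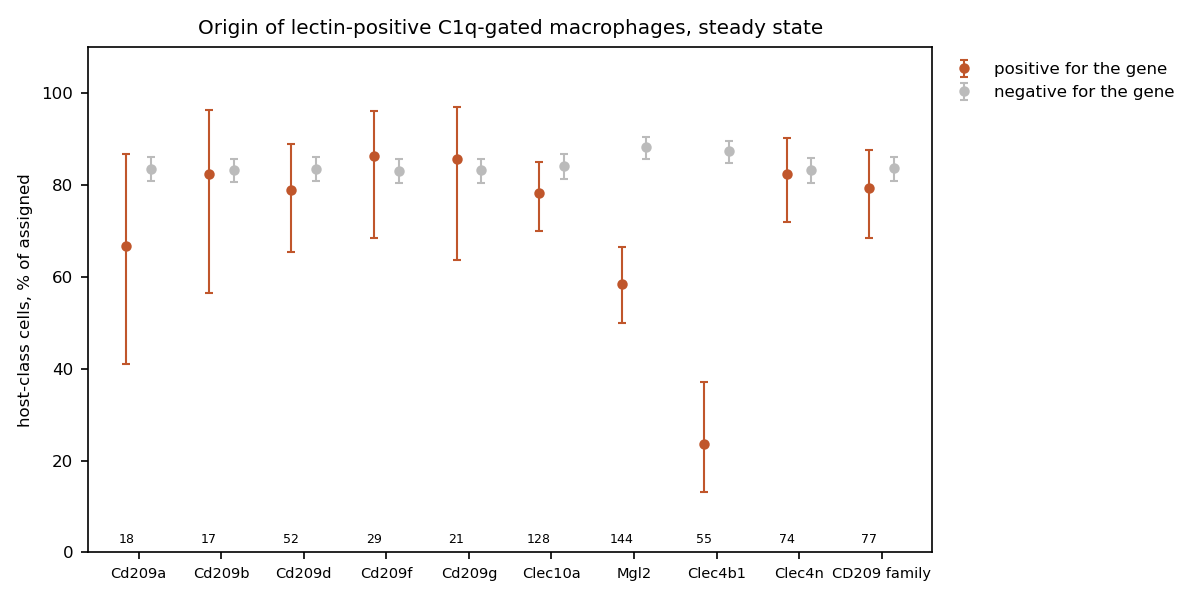
Host cells as a percentage of C1q-gated macrophages with an assigned origin (y axis) at steady state, among cells with a UMI of the gene (orange, with the number of assigned cells above the axis) and without one (grey), with 95% Clopper-Pearson intervals. Mgl2-positive cells stand at 58.3% and Clec4b1-positive cells at 23.6%, below their negative counterparts, while the intervals of the 5 CD209 genes, Clec10a and Clec4n overlap those of their negative counterparts.

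As levels, host macrophages held 37.1 CPM of Mgl2 and donor macrophages 246 at steady state (log2 -2.73, -2.95 to -2.50). They held 3.66 and 105 CPM of Clec4b1 (log2 -4.84, -5.46 to -4.26). These were 2 of 5 tested members at least 2-fold lower in host cells, where 2.95% of all genes were, and 0 were higher (5.26%). Cd209d, Cd209f and Clec4b1 were under 20 CPM in host cells and could not be called higher. The CD209 genes stood lower in host cells over all macrophages without passing 2-fold among those tested, with log2 -0.78 (-1.34 to -0.19) for Cd209d and -0.83 (-1.41 to -0.23) for Cd209f. Cd209g, under the minimum, had 5.05 CPM in host and 14.9 in donor macrophages. In the Aqp1 gate alone the log2 ratios were -1.78 for Mgl2 and -3.26 for Clec4b1, again 2 of 5 (2.24% of all genes), with 0 higher (4.25%). There too Clec4b1 was under 20 CPM in host cells and could not be called higher. Cd209d stood at 29.9 CPM in host and 27.9 in donor cells of that gate (log2 0.10, -0.50 to 0.72), and Cd209f at 24.4 and 27.1 (log2 -0.15, -0.78 to 0.50), while Cd209g stood at 8.87 and 18.1 CPM, under the minimum. At day 7 the 4 tested members were all lower in the 97 host than in the 22 donor macrophages (Cd209a, Clec10a, Mgl2 and Clec4b1; 11.1% of all genes were lower and 13.5% higher). Of these, Mgl2 alone reached 20 CPM in each group, at 20.9 CPM in host and 151 in donor cells. Cd209a, Clec10a and Clec4b1 were tested through the donor cells alone and could not be called higher, so this count is a description only. Within the day 7 Aqp1 gate, of 31 host and 14 donor cells, 2 of 4 tested were lower in host cells (Cd209a and Mgl2; 12.2% of all genes). In that gate 0 were higher (14.0% of all genes). In both day 7 comparisons Cd209a was tested through the donor cells alone. Its calls rest on 1 host UMI and 5 donor UMIs, the latter in 1 cell. In the day 7 Aqp1 gate Clec10a (log2 -0.35, -2.03 to 1.55) and Cd209d (log2 0.46) passed in neither direction, and Clec4b1 was under the minimum. Over all day 7 macrophages the donor cells gave 21 UMIs of Mgl2 and 9 or fewer of each of the other 3. Median depth was 8106 UMIs in those host and 3366.5 in those donor macrophages.

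In class II gated cells 0 of 12 Cd209a-positive cells were host cells at day 7 and 1 of 61 at steady state. Mgl2-positive cells were host cells in 1 of 7 at day 7 and 9 of 87 at steady state (10.3%, 4.84 to 18.7%), against 2 of 169 Mgl2-negative cells at steady state (1.18%, 0.14 to 4.21%). Of the 11 host cells of this gate at steady state, 9 held Mgl2 and 1 held Cd209a. In classical monocytes all 8 and 15 Cd209a-positive cells with an origin were donor cells.

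The panel included an antibody to CD301b, the product of Mgl2, with no isotype control used here. It stained weakly. In steady-state class II gated cells the median was 0 counts without an Mgl2 UMI, 1 with 1 to 4 UMIs and 2 with 5 or more, or 8.83, 13.1 and 29.9 per 10000 antibody counts. In steady-state macrophages the sums were 6.79, 15.2 and 29.6 per 10000. Cells with 10 or more CD301b counts were 1.73%, 8.11% and 11.8% of the 3 sets in the class II gate, and 1.55%, 6.19% and 17.5% in macrophages. At day 7 the class II gate showed no such order, with 20.6, 18.6 and 11.5 per 10000 in 109, 4 and 3 cells. Day 7 macrophages did, with 10.4, 22.2 and 61.2 per 10000 in 151, 14 and 3 cells. Of those macrophages 1, with 1 to 4 Mgl2 UMIs, had 10 or more CD301b counts. Stromal cells without Mgl2, which should lack the protein, gave 45.5 per 10000 at day 7 and 32.9 at steady state at median antibody totals of 142 and 116 counts, with medians of 1 and 0 counts of CD301b.

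Of 21 other C-type lectins, chosen by name, 12 were tested over all cells, of which 2 were at least 2-fold higher at day 7 (Clec4d and Clec4e; 6.51% of all genes) and 3 lower (Clec5a, Colec12 and Mrc1; 10.6%). In class II gated cells 1 of 10 tested was higher at day 7 (4.31% of all genes) and 0 were lower (4.43%): Clec4d, a partner of Dectin-2, stood at 99.98 CPM and 35.3 (log2 1.5, 1.1 to 1.9). In Ly6C-low monocytes 9 were tested, of which Clec4d was higher, at 102 and 20.5 CPM (6.15% of all genes), and Clec2i lower (5.09%). In classical monocytes Mrc1 was lower at day 7, at 12.0 and 37.9 CPM, 1 of 11 tested (1.67% of all genes), and 0 were higher (2.1%). Mrc1, under 20 CPM at day 7, could not be called higher there. In macrophages 0 of 11 passed in either direction, where 1.04% of all genes were higher and 0.899% lower. The mannose receptor Mrc1 stood at 597 CPM in macrophages at day 7 and 605 at steady state. Cd209c and Cd209e, the remaining genes of the CD209 stretch, gave 0 UMIs each in macrophages at day 7 and 4 each at steady state. Of 15 genes of the signalling route, all passed the minimum in class II gated cells. Of these Malt1, a protease downstream of Card9, was higher at day 7, at 253 and 115 CPM (log2 1.13, 0.90 to 1.36; 4.31% of all genes), and 0 were lower (4.43%). Of its 273 day 7 UMIs 43 came from 1 cell, and without the richest cells the levels of 221 and 111 CPM were just under 2-fold apart. Fcer1g, the chain that Clec4n needs to signal, stood at 2456 and 2267 CPM there and at 1889 and 2497 CPM in macrophages.

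Genes most like each member in pattern were named by Pearson's r of log2(CPM + 10) over 17 sums of a gate in a library, which differ in depth and share libraries. Cd209a was most like Klrd1 (r = 0.92), H2-DMb1 (0.87) and Slamf7 (0.85). Clec4b1 was most like H2-DMb1 (0.93), H2-DMa (0.92) and Ciita (0.88), genes of class II loading and control. Mgl2 was most like Cd2 (0.88), Mpp6 (0.87) and Tagln2 (0.81), and Cd209d like Mpp6 (0.72), Cysltr1 (0.70) and H2-Aa (0.69). Cd209f was most like Btbd10 (0.78), Lin7c (0.75) and Ap1b1 (0.74). Btbd10 and Lin7c stood highest in the day 7 Aqp1 gate, at 68.9 and 67.0 CPM. In that gate 1 cell gave 22 of the 27 Cd209f UMIs, and the ranking without that cell was not computed. Clec10a was most like Lsr (0.84), Spink2 (0.84) and Osgep (0.81), and Clec4n like Sub1 (0.89), Padi2 (0.88) and Il1b (0.87). Some of these genes passed the minimum on few counts. Lsr and Osgep stood highest in the 21 remaining macrophages of the steady state, at 59.7 and 69.6 CPM, where 3 counts are 29.8 CPM. Padi2 stood highest in the 20 day 7 cells outside all gates, at 52.4 CPM, where 3 counts are 31.5 CPM. Cd209b and Cd209g had under 100 UMIs in all and were not ranked.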

How the data were processed

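The authors deposited unnormalized UMI counts of genes and antibodies for each cell barcode. Per the submitters' processing notes, the tools were Cell Ranger 6.1.2 and Seurat 4.4.0 and the build was mm10; which step used Seurat is not stated. The other values were computed from those deposited counts with Python 3.11.15, numpy 2.4.6, scipy 1.17.1, pandas 2.3.3, scanpy 1.11.5 and scikit-learn 1.9.0. Cells needed at least 500 RNA UMIs, at least 200 detected genes and a mitochondrial share of at most 10%. Scrublet doublets (10 at day 7, 7 at steady state) were removed, leaving 1200 of 1277 and 1630 of 1912 barcodes.

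Gates used summed markers per 10000 UMIs, and the first match won: stromal (50), granulocyte (50), C1q (15), class II (50) and monocyte genes (5). Among C1q cells Vsig4 (1) came first, with S100b (1), then Aqp1 and Fxyd2 (2), then Lyve1, Cd163 and Folr2 (3). Origin came from a 2-component Gaussian mixture on log2((CD45.2 + 1)/(CD45.1 + 1)), with posteriors of 0.95 and 0.05 as limits; means were 4.03 and -2.83. A cell with weak staining can end up unassigned or be read as donor.

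UMIs were summed per gate and scaled to 1000000. Genes with 20 CPM in either group were tested, and called past 2-fold. A gene that reached the minimum in a single group could be called only toward that group. A group at 0 was set to 3 counts. With 1 library per group no p-value is given, and intervals (95%) cover counting error alone. A cell was positive for a gene at 1 UMI. The ratio step was tested on simulated data. The members and lists were chosen with earlier results of these data known. Alternatives were other gate thresholds (halved, doubled), a mitochondrial limit of 20%, doublets kept, cells thinned to 3000 UMIs, equal weight per cell, a minimum of 5 CPM, origin by sign with at least 10 antibody counts, and positivity at 2 UMIs. Leaving out the richest cell was chosen after seeing the data. The named genes were all members with a row, 21 other lectins, 15 signalling genes, and for each member with at least 100 UMIs the 3 genes nearest in pattern, among genes with 50 CPM in 1 of the sums of at least 20 cells.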

Additional observations from a re-analysis of the deposited data

Results flagged for a closer look

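Day 7 over steady state, 2 members were at least 2-fold higher in 1 gate and at least 2-fold lower in another, and the difference between gates was not tested. A gene under 20 CPM in 1 library could be called toward the other alone. This held for Cd209a in Aqp1-gated macrophages and classical monocytes, and for Cd209d in class II gated cells and all C1q-gated macrophages. Cd209a had a log2 ratio of 1.18 in Aqp1-gated macrophages, -1.26 in class II gated cells and -2.16 in classical monocytes; the macrophage value rests on 13 day 7 UMIs in 3 cells. Cd209d had a log2 ratio of 1.18 in all C1q-gated macrophages and 1.22 in Aqp1-gated ones, and -2.32 in class II gated cells; 1 cell gave 27 of the day 7 macrophage UMIs.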

How the results depend on the processing

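No paired analysis was possible because each group holds 1 library. Of the shares and counts that answer a comparison, 123 recomputed values stayed and 22 moved; of single levels and ratios 339 stayed, 49 moved and 2 reversed. A share, level or ratio stayed where it lay within the 95% interval of the main value, and a count where it was within 1.5 times the main count. Both reversals came from leaving out the richest cell, chosen after seeing the data: the day 7 over steady state log2 ratio of Cd209d became -0.082 in macrophages and -0.62 in Aqp1-gated ones. Members higher at day 7 in macrophages, 1 in the main analysis, became 0 with that cell left out, at a mitochondrial limit of 20%, after thinning and with equal weight per cell. In Aqp1-gated macrophages they were 2, and became 0 without the richest cell, 1 at the 20% limit and 1 with equal weight. Members lower at day 7 in macrophages were 0, but 1 with gate thresholds halved, 1 without the richest cell and 3 with a minimum of 5 CPM; in the Aqp1 gate they were 1, but 0 with gates doubled, 2 without the richest cell and 3 at 5 CPM. The 5 CPM minimum, which tests more genes, also gave 8 members higher in Aqp1-gated than in Vsig4-gated macrophages (main 5) and 4 lower in host than in donor macrophages (main 2). That last count was 5 with gates doubled, and with equal weight per cell 1 member was higher in host cells. At steady state the share of class II gated cells with Mgl2 was 33.7%, but 41.5% with gates doubled and 22.6% after thinning, that with Cd209a 15.7% after thinning, and that of macrophages with a CD209 UMI 5.12% after thinning. The host share of Mgl2-positive macrophages was 48.9% at 2 UMIs. The causes were not tested. The day 7 macrophage levels rest on 2 to 52 UMIs a member.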
